A study of Mus musculus with 6 samples.

Results

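The genes described here are the 5 that carry out receptor-mediated uptake of filtered protein in the kidney proximal tubule: Lrp2, Cubn, Amn, Dab2, and Clcn5. They were chosen by symbol from the 28208 genes listed for all 6 kidneys of this mouse single-cell RNA-seq series, and their raw unique molecular identifier (UMI) counts were read in proximal tubule barcodes. A barcode was counted as proximal tubule when it held at least 2 UMIs of Slc34a1, Acsm2, and Slc13a3 together and none of Ptprc, the leukocyte gene CD45. This gate took 19838 of the 45667 barcodes that passed the quality limits.

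The study set kidney allografts that were being rejected against allografts in tolerized recipients, with untransplanted kidneys as controls, and sequenced 1 library per kidney. Naive kidneys (n = 2) came from untransplanted male C57BL/6 mice of 10 to 12 weeks. Rejecting kidneys (n = 2) were BALB/c kidneys of 6 to 7 weeks taken 15 days after transplantation into C57BL/6 male recipients, whose own kidneys had both been removed. Tolerized kidneys (n = 2) came from the same donor strain, age, recipient, and day, and their recipients were also given BALB/c splenocytes treated with the cross-linker ECDI by vein 7 days before and 1 day after transplantation. The sample labels call all the mice male, whereas the series text names donors of either sex. In each of the 6 kidneys, the 4 Y-linked genes measured had UMIs and Xist had at most 6. The kidney's strain, age, and transplantation, the gene list of the library, and its barcode set all differed between naive and transplanted kidneys, so that these cannot be told apart in any comparison with naive kidneys.

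Filtered albumin, hormones, and vitamin carrier proteins are recovered from the tubular fluid by the brush border of the proximal tubule. Megalin, the product of Lrp2, is a large receptor of the LDL receptor family that spans the membrane. Cubilin, the product of Cubn, lacks a transmembrane segment and is held at the membrane by amnionless, the product of Amn. Dab2 is the adaptor that links the megalin tail to clathrin, and Clcn5 encodes the endosomal chloride/proton exchanger ClC-5, whose loss causes Dent disease with low-molecular-weight proteinuria. Loss of cubilin or amnionless function causes Imerslund-Gräsbeck syndrome, in which vitamin B12 uptake fails and proteinuria can occur.

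In GRCm38 with GENCODE M21, Lrp2 (ENSMUSG00000027070) lies at chr2:69424340-69586065 on the minus strand and Cubn (ENSMUSG00000026726) at chr2:13276338-13491813 on the same strand. Amn (ENSMUSG00000021278) lies at chr12:111271095-111276426 on the plus strand and is the shortest of the 5 genes. Dab2 (ENSMUSG00000022150) lies at chr15:6299788-6440712 on the plus strand, and Clcn5 (ENSMUSG00000004317) at chrX:7153810-7319358 on the minus strand. The RefSeq promoter table held all 5 genes, with 7 start sites.

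Lrp2, Cubn, and Amn had the most alike levels across cell classes, so the 250 bases before their RefSeq start sites are printed here, with that of the Dab2 start site that held the motif searched. The windows are chr2:69586030-69586279 (minus strand) for Lrp2, chr2:13491877-13492126 (minus strand) for Cubn, chr12:111270846-111271095 (plus strand) for Amn, and chr15:6386498-6386747 (plus strand) for Dab2, all in GRCm38.p6 and written 5′ to 3′. Capitals mark GTTAAT or its reverse complement ATTAAC, which is the half-site of HNF1, a transcription factor of the proximal tubule.
Lrp2: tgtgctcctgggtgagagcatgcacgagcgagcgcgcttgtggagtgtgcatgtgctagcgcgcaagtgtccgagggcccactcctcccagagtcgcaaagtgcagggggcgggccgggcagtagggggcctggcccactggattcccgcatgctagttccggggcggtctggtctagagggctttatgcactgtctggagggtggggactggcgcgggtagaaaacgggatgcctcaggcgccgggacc
Cubn: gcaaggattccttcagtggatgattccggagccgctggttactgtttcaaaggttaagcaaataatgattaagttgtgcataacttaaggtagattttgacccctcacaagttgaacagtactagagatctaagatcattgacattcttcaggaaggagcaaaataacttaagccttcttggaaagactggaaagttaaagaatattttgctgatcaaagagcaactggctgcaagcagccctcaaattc
Amn: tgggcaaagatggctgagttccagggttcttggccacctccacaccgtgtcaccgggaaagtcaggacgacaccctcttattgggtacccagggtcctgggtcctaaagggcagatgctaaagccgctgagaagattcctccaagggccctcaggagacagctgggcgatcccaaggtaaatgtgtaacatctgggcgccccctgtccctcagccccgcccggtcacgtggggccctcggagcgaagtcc
Dab2: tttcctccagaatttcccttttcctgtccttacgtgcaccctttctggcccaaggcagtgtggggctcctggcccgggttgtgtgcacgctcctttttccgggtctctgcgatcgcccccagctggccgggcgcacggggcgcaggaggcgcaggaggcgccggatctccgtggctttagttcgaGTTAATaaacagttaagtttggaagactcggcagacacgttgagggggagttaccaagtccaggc
These letters were in 1 of the 7 windows of the 5 genes and in 2113 of 32851 promoter windows of this length (6.43%). The Lrp2, Cubn, and Amn windows did not hold these 6 letters.

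The gate held 5361 and 4550 barcodes in naive kidneys, against 2291 and 1047 in rejecting kidneys, and tolerized kidneys had 3498 and 3091. Median depth was 3471 and 3485 UMIs per gated barcode in naive kidneys, against 3801 and 4601 in rejecting kidneys, and tolerized kidneys had 7168 and 10222. The 10 proximal tubule genes set aside as a check, among them Slc5a2, Slc22a6, and Miox, were all detected in each kidney, and at least 2 of their UMIs were found in 99.4% or more of the gated barcodes. The same share in other classes was not counted, so it does not measure how pure the gate was. Other cell classes contributed unevenly: at least 2 UMIs of the macrophage genes C1qa, C1qb, and Csf1r were found in 26.7% of gated barcodes of rejecting replicate 1, against between 0.205% and 5.46% in the other kidneys. At least 2 UMIs of any other class list were found in 34.3% of gated barcodes of rejecting replicate 1 and 39.3% of tolerized replicate 2, against between 7.45% and 22.4% in the other kidneys. These shares also depend on depth. In raw CPM, UMIs scaled to a common total, principal cell genes had 521.6 and 1056 in the naive gates. The rejecting gates had 31.5 and 24.05, and the tolerized gates 142 and 503. Endothelial genes were at 77.7 and 171.8 (naive) and 37.3 and 9.07 (rejecting). Lymphocyte genes went the other way, at 2.13 and 15.5 (naive) and 80.4 and 19.6 (rejecting). Macrophage genes had 177 and 45.65 (rejecting) beside 9.14 and 72.5 (naive). Because counts were summed over barcodes, fewer expressing cells and less RNA per cell cannot be told apart in these sums.

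All 5 genes were higher in proximal tubule barcodes than in each of the 6 other classes tested, namely thick ascending limb, distal convoluted tubule, principal cells, endothelium, lymphocytes, and macrophages, with an FDR under 0.05 in edgeR's quasi-likelihood test. Of 12207 genes tested, 27.6% were called higher in proximal tubule than in thick ascending limb, 30.3% than in distal convoluted tubule, 30.9% than in principal cells, 33.6% than in endothelium, 40.0% than in lymphocytes, and 39.0% than in macrophages. Levels in this comparison are raw CPM, the UMIs of a gene scaled to a common total of the summed barcodes, and each gene is compared only with itself.

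**Figure D1:**
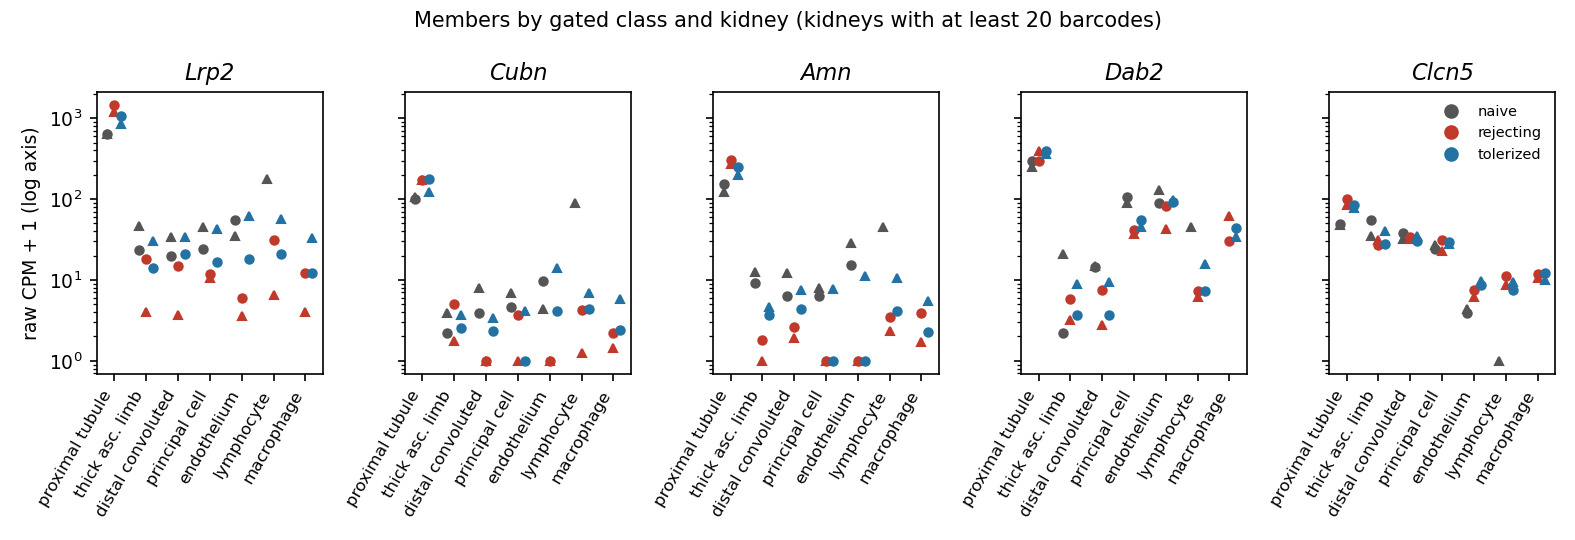
Raw CPM plus 1 on a log axis for each member (panels) in each gated class (x axis), 1 point per kidney with at least 20 barcodes of the class, circle for replicate 1 and triangle for replicate 2, colored by group. Lrp2, Cubn, and Amn are highest in the proximal tubule. Their highest lymphocyte points, at 178, 89.1, and 44.6 raw CPM, are those of naive replicate 2, with 21 lymphocyte barcodes. Dab2 also has UMIs in principal cells, endothelium, and macrophages, and Clcn5 in thick ascending limb, distal convoluted tubule, and principal cells.

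The receptor Lrp2 had between 630.5 and 1465 raw CPM in the proximal tubule sums of the 6 kidneys, with a median of 963. Pooled over kidneys, it had 19.6 raw CPM in thick ascending limb, 21.3 in distal convoluted tubule, 27.9 in principal cells, 26.8 in endothelium, 22.6 in lymphocytes, and 10.1 in macrophages. The pooled tubular and endothelial levels lay near that of lymphocytes, which serve as a background for free RNA. Every class other than proximal tubule had to hold under 2 UMIs of the gate genes. Over all 6 kidneys, 2321 barcodes with Ptprc held at least 2 and were left out of every class. This background is thus that of barcodes with little proximal tubule RNA, and it may understate free RNA elsewhere. Over the kidneys with at least 20 lymphocyte barcodes, that background ranged from 5.46 to 178 raw CPM. The top value was that of naive replicate 2, with 21 lymphocyte barcodes, and the pooled level came mostly from transplanted kidneys. On the log2 scale, Lrp2 was 6.15 ± 0.45 (SE) higher in proximal tubule than in thick ascending limb and 5.59 ± 0.48 higher than in lymphocytes.

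Cubn and Amn had the same distribution. Cubn had between 100.6 and 176 raw CPM in the proximal tubule and at most 4.70 raw CPM, pooled over kidneys, in each of the other 6 classes. Amn had between 120.1 and 301 raw CPM in the proximal tubule and at most 5.53, pooled over kidneys, in each of these classes. In naive replicate 2, the 21 lymphocyte barcodes had 89.1 raw CPM for Cubn and 44.6 for Amn. The log2 differences between proximal tubule and another class ranged from 5.57 (endothelium) to 6.59 (macrophages) for Cubn and from 5.71 (distal convoluted tubule) to 6.67 (macrophages) for Amn.

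The adaptor Dab2 was less confined. Its pooled level was 339 raw CPM in the proximal tubule, 88.5 in endothelium, 61.4 in principal cells, 44.0 in macrophages, 8.26 in distal convoluted tubule, 7.22 in lymphocytes, and 5.09 in thick ascending limb. Endothelium (41.9 to 130.1 raw CPM over kidneys), principal cells (36.04 to 105), and macrophages (29.3 to 61.1) overlapped, and distal convoluted tubule, lymphocytes, and thick ascending limb also overlapped with each other. Dab2 was 2.48 ± 0.29 (SE) higher on the log2 scale in proximal tubule than in endothelium, 2.71 ± 0.32 higher than in macrophages, 2.99 ± 0.29 higher than in principal cells, and 6.13 ± 0.38 higher than in thick ascending limb.

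Clcn5 had the smallest difference between the proximal tubule and the next nephron segments. Its pooled level was 72.6 raw CPM in the proximal tubule, 33.8 in thick ascending limb, 33.2 in distal convoluted tubule, 25.8 in principal cells, 10.46 in macrophages, 7.99 in lymphocytes, and 6.64 in endothelium. The thick ascending limb, distal convoluted tubule, and principal cell values overlapped over kidneys. Intercalated cells, too few to test, had 226 pooled raw CPM from 65 UMIs in 20 barcodes, above the pooled level of the proximal tubule. Rejecting replicate 1, the only kidney with at least 20 intercalated barcodes, had 108 raw CPM there and 100.6 in its proximal tubule. Proximal tubule exceeded thick ascending limb by 1.20 ± 0.16 (SE) on the log2 scale (FDR = 5.82e-08), distal convoluted tubule by 1.21 ± 0.15 (FDR = 2.81e-08), and principal cells by 1.92 ± 0.17 (FDR = 6.15e-12). In naive replicate 1 alone, the order was turned, with 48.3 raw CPM in proximal tubule and 54.5 in thick ascending limb, the latter from 46 UMIs.

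Likeness was described by Pearson's r of log2(CPM + 1) over the 39 sums of a kidney and class, among 5539 genes. These sums share libraries and class structure, so r is given without a test. The 3 genes most like Lrp2 were Slc51a (r = 0.98), Slc22a8 (r = 0.97), and Slc22a2 (r = 0.97), all solute transporter genes. Those most like Cubn were Slc51a (r = 0.97), Lrp2 itself (r = 0.96), and Slc13a1 (r = 0.96). Among those most like Amn were Cyp2j5 (r = 0.97) and the gate gene Acsm2 (r = 0.97).

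Lrp2, Cubn, and Amn had r between 0.93 and 0.96 with each other. Dab2 had r between 0.63 and 0.69 with these 3 genes and was most like Gcnt1 (r = 0.87), Abcg2 (r = 0.87), and Renbp (r = 0.84). Clcn5 had r between 0.34 and 0.45 with the 3 receptor genes and 0.12 with Dab2, and it was most like Acad10 (r = 0.92), Pm20d1 (r = 0.92), and Ivd (r = 0.91), the latter a mitochondrial enzyme of leucine breakdown.

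Within the proximal tubule, 3 of the 5 genes differed between segments. Barcodes were split into S1/S2-like (at least 2 UMIs of Slc5a2 and Slc5a12, no UMI of Slc7a13, Cyp7b1, or Atp11a; 3495 barcodes) and S3-like (the reverse; 5707 barcodes), and the segments were compared within kidneys. Dab2, Amn, and Cubn were lower in S3-like barcodes, and Lrp2 and Clcn5 did not pass the test. Of 10655 genes tested, 17.3% were called lower in S3-like barcodes.

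Dab2 had 499 and 365 raw CPM in S1/S2-like barcodes of the naive kidneys, 472 and 602 in rejecting kidneys, with 646 and 552 in tolerized kidneys. In S3-like barcodes it had 217 and 234 raw CPM in naive kidneys, against 208 and 239.8 in rejecting kidneys, and tolerized kidneys had 265 and 191. Every S1/S2-like value was above every S3-like value. The share of all genes separated in this way, or lower in S3-like barcodes of every kidney, was not counted. The adaptor was 2.28-fold lower in S3-like barcodes (log2 −1.19 ± 0.10 SE, FDR = 3.76e-06 by edgeR), and each of the alternatives tried kept this call.

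Amn was lower in S3-like barcodes in 6 of 6 kidneys, by 1.41-fold (log2 −0.49 ± 0.11 SE, FDR = 0.00541 by edgeR). Its raw CPM ranged from 195 to 359 in S1/S2-like and from 116 to 284 in S3-like barcodes, so that the segments overlapped between kidneys and not within them. Cubn was also lower in S3-like barcodes in 6 of 6 kidneys, by 1.298-fold (log2 −0.38 ± 0.12 SE, FDR = 0.0282 by edgeR). Its raw CPM ranged from 145 to 207 in S1/S2-like and from 94.7 to 182 in S3-like barcodes. The Cubn call was lost without naive replicate 1 (FDR = 0.116), naive replicate 2 (FDR = 0.0755), rejecting replicate 2 (FDR = 0.0597), or tolerized replicate 2 (FDR = 0.0989), and at most 20% mitochondrial UMIs ended the calls of both Amn (log2 −0.18) and Cubn (log2 −0.19). The Cubn call was also lost with at least 4 gate UMIs (log2 −0.26), without barcodes holding another class marker (log2 −0.22), and at 1500 UMIs (log2 −0.18), so that it passed in 9 of 17 alternatives.

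Lrp2 was higher in S3-like barcodes in 4 of 6 kidneys, and the log2 difference of 0.05 had a 95% interval from −0.19 to 0.29. It passed once barcodes with markers of another class were left out (log2 0.22, FDR = 0.0434 by edgeR). Clcn5 was lower in S3-like barcodes in 4 of 6 kidneys, with a log2 difference of −0.12 and an interval from −0.33 to 0.09. The gate genes also moved along the tubule, with Slc13a3 2.26-fold higher and Slc34a1 1.34-fold lower in S3-like barcodes. The mix of segments differed between kidneys too: tolerized replicate 2 held 881 S1/S2-like and 538 S3-like barcodes, whereas S3-like barcodes were more numerous than S1/S2-like in the other 5 kidneys.

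**Figure D2:**
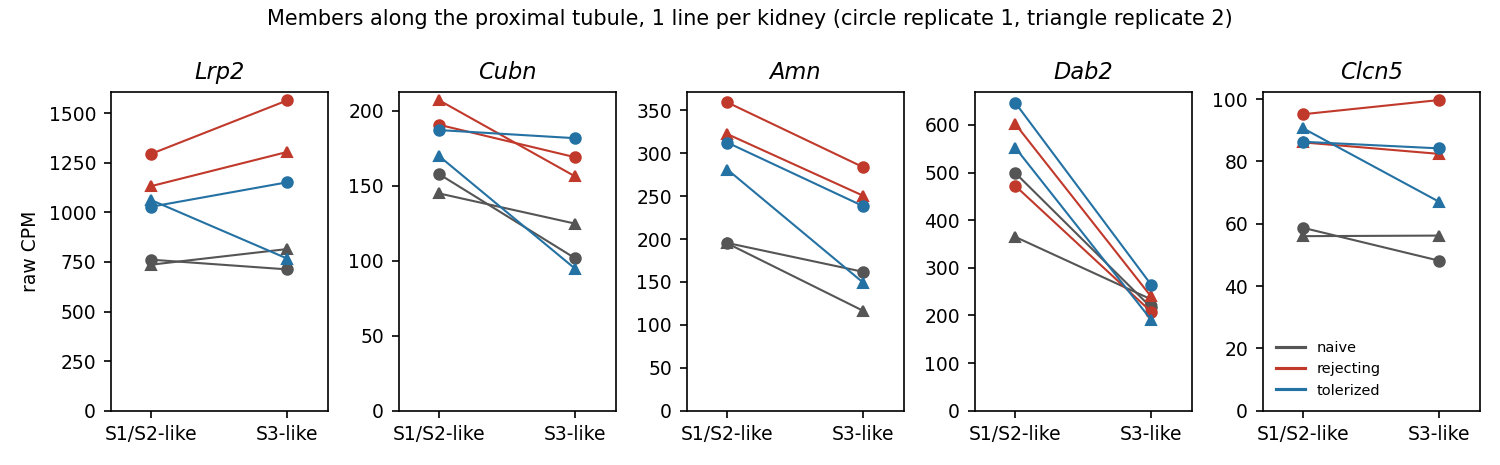
Raw CPM of each member (panels, y axes from 0) in S1/S2-like and S3-like proximal tubule barcodes, with a line joining both sums of 1 kidney and colors for groups. The Dab2 lines fall in all 6 kidneys, from between 365 and 646 to between 191 and 265, whereas the Lrp2 lines rise in 4 kidneys and fall in 2.

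Whether the S1/S2-like to S3-like difference itself differed between groups was tested in 1 fit with an interaction term. None of the 5 genes passed an FDR of 0.05 by edgeR in any of the 3 contrasts, where 0.675% of 11992 genes were called between rejecting and naive kidneys, 1.73% between tolerized and naive kidneys, and 0.00834% between tolerized and rejecting kidneys. At an unadjusted p under 0.05 lay Lrp2, whose S3-like minus S1/S2-like log2 difference was lower in tolerized than in rejecting kidneys by a log2 of −0.51 ± 0.22 (SE; FDR = 0.797 by edgeR), and Dab2 between tolerized and naive kidneys (log2 −0.47 ± 0.20 SE; FDR = 0.381 by edgeR). Without tolerized replicate 1, 3 genes passed between tolerized and rejecting kidneys: Lrp2 (log2 −0.95), Amn (log2 −0.80), and Cubn (log2 −0.80), where 3.0% of 12412 genes were called. Without that kidney, Dab2 passed between tolerized and naive kidneys (log2 −0.71), where 4.67% were called.

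The groups were then compared over all proximal tubule barcodes, summed per kidney. In rejecting kidneys, Lrp2, Amn, and Clcn5 were 1.6- to 1.72-fold higher than in naive kidneys and passed an FDR of 0.05. Cubn lay in the same direction without passing, and Dab2 was nearly level. Tolerized kidneys lay between naive and rejecting kidneys in mean level for Lrp2, Cubn, Amn, and Clcn5, and none of the 5 genes passed against either group. Levels in this comparison are CPM after the trimmed mean of M values (TMM) normalization of edgeR, and 14.8% of the 13682 genes tested were called higher and 15.2% lower in rejecting than in naive kidneys, 9.69% higher and 6.78% lower in tolerized than in naive kidneys, and 0.0% in either direction between tolerized and rejecting kidneys.

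Lrp2 had 736 and 663 CPM in naive kidneys, against 1326 and 1078 in rejecting kidneys, and tolerized kidneys had 1048 and 871. Both rejecting kidneys were above both tolerized kidneys, and these were above both naive kidneys. Megalin mRNA was 1.72-fold higher in rejecting than in naive kidneys (log2 0.78 ± 0.21 SE, 95% interval 0.28 to 1.28, FDR = 0.0320 by edgeR). Tolerized kidneys differed from naive kidneys by a log2 of 0.46 ± 0.21 (SE; FDR = 0.186 by edgeR) and from rejecting kidneys by −0.33 ± 0.21 (FDR = 0.684), with a 95% interval for the latter from −0.82 to 0.17.

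Amn, the membrane anchor of cubilin, had 179.6 and 125 CPM in naive kidneys, against 273 and 249.6 in rejecting kidneys, and tolerized kidneys had 244 and 203. Its 3 groups did not overlap, in the same order as Lrp2. It was 1.71-fold higher in rejecting than in naive kidneys (log2 0.78 ± 0.23 SE, 95% interval 0.23 to 1.32, FDR = 0.0416 by edgeR). The difference between tolerized and naive kidneys was a log2 of 0.55 ± 0.23 (SE; FDR = 0.146 by edgeR), and that between tolerized and rejecting kidneys was −0.22, with a 95% interval from −0.76 to 0.31.

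Clcn5, the endosomal exchanger, had 56.4 and 48.7 CPM in naive kidneys, against 91.1 and 76.9 in rejecting kidneys, and tolerized kidneys had 82.7 and 78.3. All 4 transplanted kidneys were above both naive kidneys, and rejecting and tolerized kidneys overlapped. It was 1.6-fold higher in rejecting than in naive kidneys (log2 0.68 ± 0.18 SE, 95% interval 0.26 to 1.10, FDR = 0.0284 by edgeR). The tolerized kidneys gave a log2 of 0.62 ± 0.18 (SE) against naive kidneys with an FDR of 0.0554 by edgeR, on the other side of the threshold, and a log2 of −0.06 against rejecting kidneys, with a 95% interval from −0.48 to 0.35.

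Cubn had 117.5 and 109 CPM in naive kidneys, against 155 and 155 in rejecting kidneys, and tolerized kidneys had 173 and 124. All 4 transplanted kidneys were above both naive kidneys, and the rejecting kidneys lay within the range of the tolerized kidneys. The log2 difference was 0.45 ± 0.21 (SE; FDR = 0.137 by edgeR) between rejecting and naive kidneys and 0.39 ± 0.21 (FDR = 0.237) between tolerized and naive kidneys. Between tolerized and rejecting kidneys it was −0.06, with a 95% interval from −0.55 to 0.42.

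Dab2 had 344.5 and 257 CPM in naive kidneys, against 264 and 356 in rejecting kidneys, and tolerized kidneys had 388 and 369. Naive and rejecting kidneys overlapped, and both tolerized kidneys were above the other 4. The adaptor differed by a log2 of 0.04 ± 0.24 (SE, 95% interval −0.51 to 0.59) between rejecting and naive kidneys and by 0.29 ± 0.24 (95% interval −0.26 to 0.84) between tolerized and rejecting kidneys. Neither difference, nor that between tolerized and naive kidneys (log2 0.33 ± 0.24 SE), passed an FDR of 0.05 by edgeR.

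**Figure D3:**
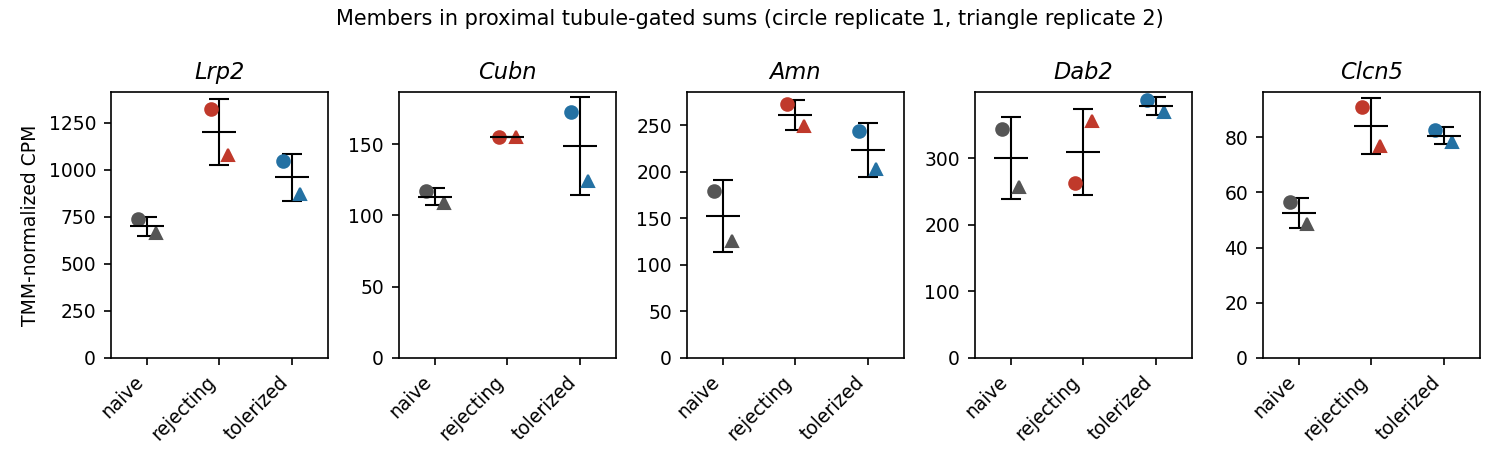
TMM-normalized CPM of each member (panels, y axes from 0) in proximal tubule sums, 1 point per kidney, with the group mean as a bar and ± 1 SD as whiskers (n = 2). Rejecting and tolerized kidneys lie above naive kidneys for Lrp2, Cubn, Amn, and Clcn5, and the naive and rejecting points of Dab2 overlap.

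Across all 13682 genes, both rejecting kidneys were above both naive kidneys for 34.0% of genes, so this pattern in 4 of the 5 members is read against that share. All 5 members were higher in both tolerized kidneys than in both naive kidneys, as were 32.7% of all genes. Between tolerized and rejecting kidneys, Lrp2 and Amn were lower in both tolerized kidneys (15.9% of genes) and Dab2 was higher in both (22.3% of genes). The 3 calls rested on few kidneys. No member passed once either naive kidney or either rejecting kidney was left out, with log2 differences for Lrp2 between 0.62 and 0.92 in these 4 fits. Without tolerized replicate 2, Cubn also passed (log2 0.52, FDR = 0.0423 by edgeR). With only S1/S2-like barcodes no member passed, and the rejecting minus naive log2 difference was 0.27 for Lrp2, 0.37 for Amn, and 0.23 for Clcn5. With only S3-like barcodes no member passed either, at 0.60, 0.61, and 0.50. Without barcodes that held markers of another class, Clcn5 still passed (log2 0.58), whereas Lrp2 and Amn each had a log2 of 0.50. The part of macrophage and other segment transcripts in the gate in these differences was not tested beyond that fit.

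A limit of 20% mitochondrial UMIs gave larger differences for these members. The median share of mitochondrial UMIs in gated barcodes was 25.4% and 24.7% in naive kidneys, against 18.2% and 17.6% in rejecting kidneys, and tolerized kidneys had 15.1% and 21.2%. Under this limit, 4 members were higher in rejecting than in naive kidneys with an FDR under 0.05, at a log2 of 1.19 for Lrp2, 0.92 for Cubn, 1.07 for Amn, and 1.23 for Clcn5, and 32.2% of 12749 genes were called in either direction. Lrp2 (log2 0.99), Cubn (log2 0.92), and Clcn5 (log2 1.04) were also called higher in tolerized than in naive kidneys, where 17.8% of genes were called in either direction. With scaling by library size alone, the median log2 difference of all genes between rejecting and naive kidneys was 0.26, 70.9% of called genes were higher against 49.4% with TMM, and Cubn passed (log2 0.74, FDR = 0.0348 by edgeR). For tolerized against naive kidneys the same scaling gave a median of 0.15 and 73.5% of calls higher, against 58.8%. The gate genes themselves were not called in any contrast, with Slc34a1 at a log2 of −0.28, Acsm2 at −0.26, and Slc13a3 at 0.76 between rejecting and naive kidneys. Because barcodes were selected on these genes, their levels are bound by the gate and are no control for the members.

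Detection per barcode was described at 1500 UMIs, because the kidneys differed in depth. Barcodes under that depth were left out, the others were thinned to it, and the gate was applied again to the thinned counts. The gated set thus changed, for example from 3091 to 2316 barcodes in tolerized replicate 2 and from 2291 to 1911 in rejecting replicate 1. Lrp2 then had a UMI in 54.9% and 56.4% of gated barcodes in naive kidneys, against 80.1% and 73.9% in rejecting kidneys, and tolerized kidneys had 68.9% and 67.1%. Exact 95% binomial intervals of the 3 groups did not overlap, with 53.5% to 58.0% covering both naive kidneys, 65.1% to 70.5% both tolerized kidneys, and 70.8% to 81.8% both rejecting kidneys. These intervals cover counting error only, not the spread between kidneys. In lymphocyte barcodes of the 4 transplanted kidneys, at the same 1500 UMIs, Lrp2 had a UMI in between 1.05% and 8.69%. Lymphocyte barcodes had to hold under 2 UMIs of the gate genes, so lymphocyte shares may understate free RNA.

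Without thinning, Lrp2 had a UMI in between 68.4% and 71.8% of gated barcodes in naive kidneys, against 83.5% and 86.6% in rejecting kidneys, and tolerized kidneys had 76.0% and 85.9%. The thinned shares of Cubn were 13.9% and 15.2% in naive kidneys, against 24.5% and 22.1% in rejecting kidneys, and tolerized kidneys had 21.7% and 18.4%. Those of Amn were 22.1% and 16.9%, then 35.6% and 32.1%, then 32.0% and 27.8%, in the same order of groups. For both genes the 4 transplanted kidneys were above both naive kidneys, as for Lrp2. How many of all genes had thinned detection shares that separate the groups, in this or another order, was not counted.

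Dab2 had a UMI in 32.5% and 31.2% of thinned barcodes in naive kidneys, against 32.2% and 38.6% in rejecting kidneys, and tolerized kidneys had 41.3% and 42.1%, so that only the tolerized kidneys stood above the naive ones in both replicates. Clcn5 had a UMI in 5.23% and 6.78%, 13.1% and 10.4%, and 9.76% and 10.2%, respectively. In lymphocyte barcodes of the transplanted kidneys, the thinned shares of Cubn, Amn, Dab2, and Clcn5 lay between 0.0552% and 2.59%. The naive kidneys held 16 and 19 lymphocyte barcodes at this depth, too few for a background share.

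**Figure D4:**
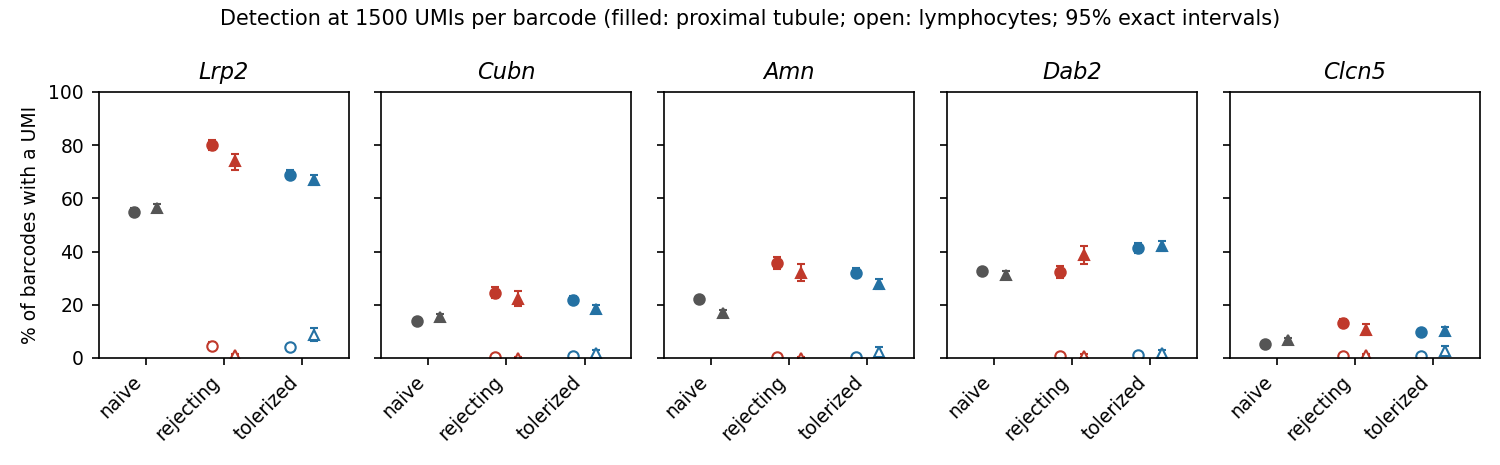
Share of barcodes with at least 1 UMI of each member (panels) after thinning to 1500 UMIs, by group and kidney, with 95% exact binomial intervals, filled for proximal tubule and open for lymphocyte barcodes (transplanted kidneys only). The Lrp2 share is lowest in naive kidneys (54.9% and 56.4%) and highest in rejecting kidneys (80.1% and 73.9%), whereas lymphocyte shares stay at or below 8.69%.

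Detection of several members in 1 barcode was counted after thinning. At 1500 UMIs, at least 1 of the 5 genes was found in 79.2% and 75.3% of gated barcodes of the naive kidneys, 93.0% and 90.2% of the rejecting kidneys, and 88.7% and 86.0% of the tolerized kidneys. Both Cubn and Amn, the partners of the cubilin complex, were found in 3.40% and 3.21%, 8.95% and 7.45%, and 7.52% and 6.13%, respectively. Lrp2 had a UMI in between 65.2% and 88.5% of Cubn-positive barcodes and in between 53.3% and 77.3% of Cubn-negative barcodes of the 6 kidneys, and it was the more frequent in Cubn-positive barcodes in each kidney. Shared detection also rises with how much proximal tubule RNA a barcode holds, whose part in it was not tested.

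Clcn5 had levels above those of lymphocytes in 3 of the other tubule classes tested, intercalated cells being too few to test. Its group difference in the proximal tubule was set against that in those 3 segments, a comparison added after the levels by class had been seen. In thick ascending limb barcodes it had 54.5 and 34.3 raw CPM in naive kidneys, against 26.0 and 29.8 in rejecting kidneys, and tolerized kidneys had 26.9 and 39.0. In distal convoluted tubule barcodes it had 37.0 and 31.0, 33.3 and 31.1, and 29.3 and 34.4, respectively. The proximal tubule sums had 48.3 and 46.6, 100.6 and 84.4, and 84.4 and 76.9. The transplanted kidneys were thus above the naive kidneys in the proximal tubule. In thick ascending limb both rejecting kidneys were below both naive kidneys, and in distal convoluted tubule the groups overlapped. The naive thick ascending limb values rested on few UMIs, and the share of all genes with this order there was not counted.

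The rejecting minus naive log2 difference of Clcn5 was 1.59 ± 0.28 (SE) greater in proximal tubule than in thick ascending limb (FDR = 0.00302 by edgeR) and 1.07 ± 0.26 greater than in distal convoluted tubule (FDR = 0.0192). Of 11903 genes, 2.09% were called in this direction against thick ascending limb and 1.87% against distal convoluted tubule. The tolerized minus naive difference was 1.19 ± 0.27 (SE) greater in proximal tubule than in thick ascending limb (FDR = 0.0349 by edgeR, with 0.386% of genes called in this direction), and 0.91 ± 0.25 greater than in distal convoluted tubule (FDR = 0.0946, with 0.454% called). Against principal cells neither difference passed (log2 0.81 and 0.40), where 0.344% of genes were called higher between tolerized and naive kidneys. Dab2 was compared in the same way with principal cells and endothelium, where 1.90% and 3.13% of genes were called higher between rejecting and naive kidneys, and it passed against neither (log2 1.57, FDR = 0.0878, and 0.90, FDR = 0.394, by edgeR). Between tolerized and naive kidneys it passed against neither as well (log2 1.299 and 0.57), where 1.42% of genes were called higher against endothelium.

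The naive thick ascending limb values rested on 155 and 95 barcodes with 46 and 12 Clcn5 UMIs. The rejecting minus naive call against thick ascending limb was lost without naive replicate 1 (log2 1.24, FDR = 0.210 by edgeR), naive replicate 2 (FDR = 0.0577), or rejecting replicate 1 (FDR = 0.0884), and at no more than 20% mitochondrial UMIs (log2 2.44, FDR = 0.0911). The call against distal convoluted tubule was lost without any 1 of the naive or rejecting kidneys, with log2 differences between 0.81 and 1.21, and in DESeq2 (log2 0.96, FDR = 0.0542), with no filter on low counts (log2 0.86), at no more than 20% mitochondrial UMIs (log2 0.88), with at least 4 gate UMIs (log2 0.73), and at 1500 UMIs (log2 1.80). The tolerized minus naive call against thick ascending limb was lost without any 1 kidney other than tolerized replicate 2, with no filter on low counts (log2 1.02), at no more than 20% mitochondrial UMIs (log2 2.38), and at 1500 UMIs (log2 1.62). Of 17 alternatives, these 3 calls passed in 13, 8, and 9.

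The genes that act with the 5 members were taken from lists. The counts per list are read beside the calls over all 13682 genes (FDR under 0.05 by edgeR). Set against the naive group, 14.8% of all genes were called higher in rejecting kidneys and 15.2% lower. For the tolerized group these shares were 9.69% and 6.78%. Whether any list held more calls than these shares was not tested. Of the 16 genes for clathrin adaptors and the coat, 2 rose in rejecting against naive kidneys, 1 fell, and 13 did not pass, with a median log2 of 0.20 beside −0.03 over all genes tested. Myo6, the motor that moves along actin toward its minus end and carries uncoated vesicles inward, rose from 148 and 122 CPM in naive kidneys to 224 and 194 in rejecting kidneys (log2 0.63, FDR = 0.0449 by edgeR). Numb, an endocytic adaptor, rose from 6.24 and 9.78 to 15.7 and 13.0 CPM (log2 0.85, FDR = 0.0474), and Cltb, a clathrin light chain, fell from 139 and 129 to 91.4 and 81.5 CPM (log2 −0.63, FDR = 0.0310). No gene of this list passed in tolerized against naive kidneys (median log2 0.26).

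Of the 15 genes for endosomes and recycling, 3 rose and 4 fell in rejecting kidneys, with a median log2 of 0.18. Eea1, a tether of early endosomes, rose from 46.8 and 31.2 CPM in naive kidneys to 94.7 and 102.9 in rejecting kidneys (log2 1.34, FDR = 0.00674 by edgeR) and to 85.3 and 78.7 in tolerized kidneys (log2 1.07, FDR = 0.0193). Rab5a, the small GTPase of early endosomes, fell from 76.9 and 62.4 to 32.4 and 36.3 CPM in rejecting kidneys (log2 −1.02, FDR = 0.00782) and to 37.2 and 39.5 in tolerized kidneys (log2 −0.86, FDR = 0.0185). The early endosome genes thus moved in both directions.

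Fcgrt, whose product FcRn recycles IgG and albumin, fell from 129.7 and 105 CPM in naive kidneys to 63.0 and 64.8 in rejecting kidneys (log2 −0.88, FDR = 0.0151 by edgeR) and to 71.4 and 60.6 in tolerized kidneys (log2 −0.83, FDR = 0.0254). Mon1a, which acts in the handover from Rab5 to Rab7, fell in rejecting kidneys (log2 −0.86, FDR = 0.0243), and Appl1, an adaptor on early endosomes, rose in tolerized kidneys (log2 0.76, FDR = 0.0200). In tolerized against naive kidneys, 2 of the 15 genes rose and 2 fell, with a median log2 of 0.13.

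Of the 19 genes for endosomal acidification, 3 rose and 4 fell in rejecting kidneys, with a median log2 of −0.03, and 1 rose in tolerized kidneys. The proton pump subunits Atp6v1f (558 and 546 CPM in naive kidneys, 330.0 and 306 in rejecting kidneys) and Atp6v0e (328 and 297.5, then 189 and 187) fell, with log2 differences of −0.80 and −0.74 and FDRs of 0.0184 and 0.0243 by edgeR. Atp6v0c rose from 1.22 and 1.39 to 12.6 and 3.28 CPM (log2 2.63, FDR = 0.0190). Its higher value was that of rejecting replicate 1, the kidney with the most macrophage markers in its gated barcodes, and without that kidney the log2 difference was 1.33. The part of macrophage transcripts or of the gene list of the naive libraries in this difference was not tested. Slc9a3, the apical sodium/proton exchanger NHE3, had 0.439 and 0.0556 CPM in naive kidneys, against 38.2 and 43.6 in rejecting kidneys, and tolerized kidneys had 35.6 and 42.9, and it was called higher in both comparisons with naive kidneys. The naive libraries were counted on another gene list than the transplanted ones, and its part in so large a difference was not tested.

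Of the 15 lysosome genes, 5 rose, none fell, and 10 did not pass in rejecting kidneys, 13 had a positive difference, and the median log2 was 0.48. In tolerized kidneys 3 rose, none fell, and 12 did not pass, 14 had a positive difference, and the median log2 was 0.45 beside 0.01 over all genes. Lamp1, a main lysosomal membrane protein, rose from 543 and 471.5 CPM in naive kidneys to 894 and 987 in rejecting kidneys (log2 0.89, FDR = 0.0255 by edgeR), and Ctsa, a lysosomal carboxypeptidase, rose from 114 and 86.6 to 173 and 176 CPM (log2 0.79, FDR = 0.0370).

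Scarb2, the lysosomal receptor of glucocerebrosidase, rose in rejecting (log2 0.86, FDR = 0.0311 by edgeR) and in tolerized kidneys (log2 0.95, FDR = 0.0315) against naive kidneys. Gla, which encodes alpha-galactosidase A, rose from 1.61 and 2.501 CPM in naive kidneys to 5.87 and 8.53 in rejecting kidneys (log2 1.80, FDR = 0.0114) and to 6.04 and 4.77 in tolerized kidneys (log2 1.40, FDR = 0.0339). Hexa, a subunit of beta-hexosaminidase, rose in tolerized kidneys (log2 0.82, FDR = 0.0231). Macrophages also express lysosomal genes, and their markers were most frequent in the gated barcodes of rejecting replicate 1. Lamp1, Ctsa, Scarb2, and Gla were each lower in that kidney than in rejecting replicate 2. The part of macrophage transcripts in the lysosome differences was not tested.

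**Figure D5:**
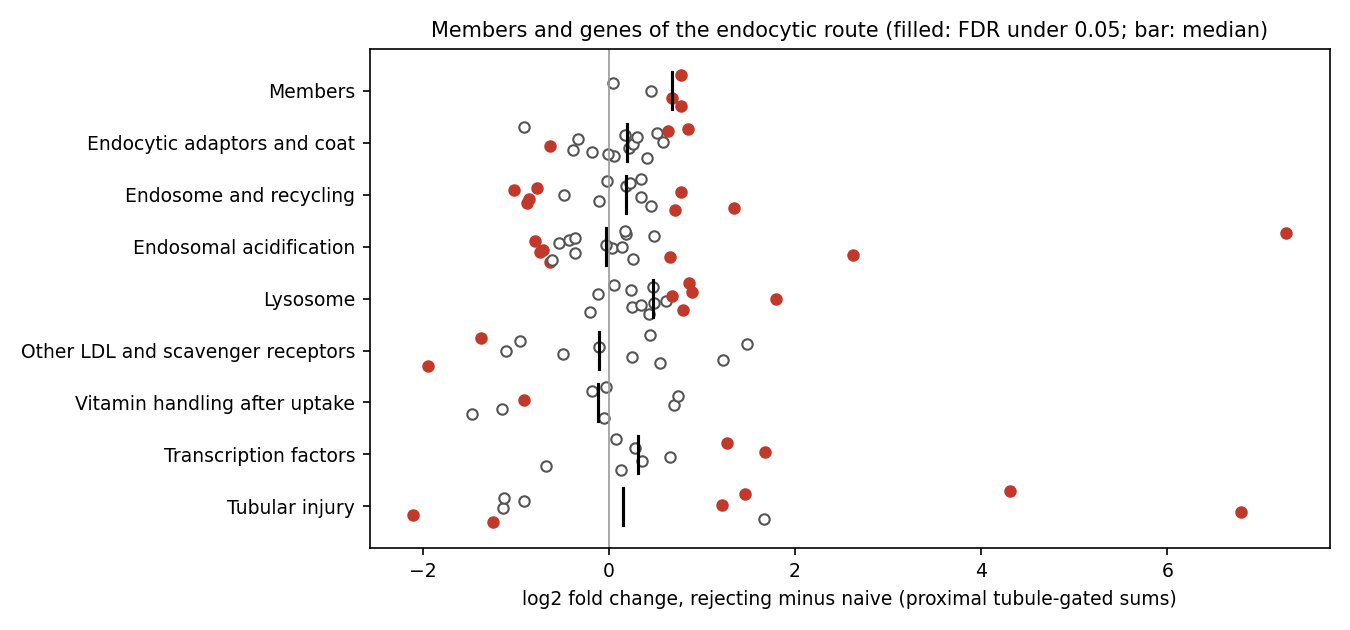
Log2 fold change between rejecting and naive kidneys in proximal tubule sums (x axis) for the 5 members and the genes of each list (rows), with filled points for an FDR under 0.05 and a bar at the median. The members lie at a median of 0.68 and the lysosome list at 0.48, whereas the acidification list is centered at −0.03 with genes on both sides.

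Of 11 other LDL receptor family and scavenger receptor genes, none rose and 2 fell in rejecting kidneys, with a median log2 of −0.11. Cd36, a fatty acid and scavenger receptor, fell from 237 and 234 CPM in naive kidneys to 58.0 and 64.3 in rejecting kidneys (log2 −1.95, FDR = 0.00175 by edgeR) and to 71.9 and 49.5 in tolerized kidneys (log2 −1.96, FDR = 0.00202). Sorl1, a sorting receptor of the same family as megalin, fell from 35.3 and 35.1 to 13.5 and 13.7 CPM in rejecting kidneys (log2 −1.38, FDR = 0.0139). Of 8 genes for vitamin handling after uptake, none rose, 7 did not pass, and 1 fell in rejecting kidneys, with a median log2 of −0.12. The gene that fell was Mmachc, which processes vitamin B12 (log2 −0.91, FDR = 0.0239 by edgeR).

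Of 8 transcription factor genes of the proximal tubule and lysosome, 2 rose in rejecting kidneys and none fell, with a median log2 of 0.32. These were Ppara (18.3 and 7.22 CPM in naive kidneys, 35.4 and 47.2 in rejecting kidneys; log2 1.68, FDR = 0.0217 by edgeR) and Tfe3, a regulator of lysosomal genes (8.19 and 7.11, then 18.7 and 18.1; log2 1.27, FDR = 0.0206). Of the 10 tubular injury genes tested, 4 rose and 2 fell in rejecting kidneys, with a median log2 of 0.15, and 3 rose in tolerized kidneys, with a median of 0.85. Havcr1, which encodes the injury marker KIM-1, had 0.146 and 0.389 CPM in naive kidneys, against 18.5 and 40.9 in rejecting kidneys, and tolerized kidneys had 35.5 and 4.97.

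Vcam1 had 3.61 and 3.001 CPM in naive kidneys, against 71.5 and 60.2 in rejecting kidneys, and tolerized kidneys had 37.2 and 17.4, and both transplanted groups passed against naive kidneys (FDR = 0.000656 and 0.00265 by edgeR). Spp1, which encodes osteopontin, rose from 606 and 544 CPM in naive kidneys to 955 and 2216 in rejecting kidneys and to 1514 and 1675 in tolerized kidneys (log2 1.46 and 1.47), and without rejecting replicate 2 the first of these differences was 0.73 (FDR = 0.0760 by edgeR). Clu, which encodes clusterin, fell from 124 and 135 to 25.2 and 35.6 CPM in rejecting kidneys (log2 −2.10, FDR = 0.0190), and with only S3-like barcodes its log2 difference was −0.17 (FDR = 0.904). Of 37 calls on listed genes that met the naming rule in the comparisons with naive kidneys, 9 passed with each of the 6 kidneys left out in turn and 28 were lost in at least 1 of these fits, Lamp1, Ctsa, Scarb2, Spp1, Clu, and Atp6v0c among them. Between tolerized and rejecting kidneys, none of the 13682 genes passed in edgeR, 1467 had an unadjusted p under 0.05, and DESeq2 called 320, of which none was a member.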

How the data were processed

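Single-cell RNA-seq of 6 mouse kidneys was deposited as UMI counts per gene and barcode, which the authors made with CellRanger against mm10. The headers of the transplanted libraries name version 3.0.1 and those of the naive libraries name none, and 28692 genes were listed for naive and 31053 for transplanted kidneys. Total UMIs per library ranged from 34874702 to 96803926. Kept barcodes held 500 UMIs or more from 250 genes or more, with a mitochondrial share of 50% or less, and those with the highest Scrublet doublet scores were removed, at 0.8% per 1000 barcodes (scanpy 1.11.5). Barcodes shared between libraries numbered 111 for the naive pair and 18 to 35 for pairs of transplanted kidneys. Pairs of a naive and a transplanted kidney shared 0 to 4. Classes were gated on fixed marker UMIs, and counts were summed per kidney and class. Sums were tested with edgeR 4.0.16 (quasi-likelihood, filterByExpr, TMM, Benjamini-Hochberg FDR under 0.05 over all genes) in R 4.3.3, with DESeq2 1.42.0 as an alternative. Other alternatives changed normalization, filters, gates, and depth, or left out each kidney. Named genes were the members and up to 4 genes per list and contrast past the FDR without overlap of the groups, by size of the log2 difference. On simulated data for rejecting against naive kidneys (13362 genes, 100 changed 2-fold and 100 changed 4-fold), 13.4% of 2-fold and 71.4% of 4-fold changes were recovered. The members and lists were chosen with earlier results of these data known. The labels give separate kidneys per group and no batch. The study ran 2 experiments, each with 1 kidney of every group, and whether the replicate numbers mark them is not given in the sources used here. A fit with the replicate number as a block was an alternative. Some genes that met the naming rule are not reported here.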

Additional observations from a re-analysis of the deposited data

Results flagged for a closer look

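The change of Clcn5 between groups differed between the proximal tubule and some other nephron segments. This comparison was added after the levels by class had been seen. Against principal cells, Clcn5 passed in neither contrast with naive kidneys (FDR = 0.166 for rejecting and 0.654 for tolerized kidneys by edgeR). Against distal convoluted tubule, Clcn5 did not pass between tolerized and naive kidneys (FDR = 0.0946). Its rejecting minus naive log2 difference was greater in proximal tubule than in thick ascending limb by 1.59 and than in distal convoluted tubule by 1.07, and its tolerized minus naive difference was greater than in thick ascending limb by 1.19. Each was past an FDR of 0.05 in the interaction test of edgeR, and they passed in 13, 8, and 9 of 17 alternatives.

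Intercalated cells were left out of the comparisons because only 74 barcodes passed their gate. Pooled over kidneys, Clcn5 had 226 raw CPM there and Dab2 had 247. These compare with 72.6 and 339 in the proximal tubule and 7.99 and 7.22 in lymphocytes. Only rejecting replicate 1 held at least 20 intercalated barcodes. In that kidney, Clcn5 had 108 raw CPM in them and 100.6 in the proximal tubule, and Dab2 had 306.5 and 291.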

How the results depend on the processing

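No member changed direction with a call. All 5 genes stayed higher in proximal tubule than in each other class of the reported comparison under every alternative run. Of 3 members called between rejecting and naive kidneys, 1 remained without barcodes holding another class marker, 0 with only S1/S2-like and 0 with only S3-like barcodes, and from 0 to 4 were called when 1 kidney was left out, where a lone kidney is assumed to vary like the other groups. Between tolerized and naive kidneys, 0 were called, against 1 with DESeq2, with library size only, with no filter, without mitochondrial genes, with at least 4 gate UMIs, or without other class markers, and 3 at no more than 20% mitochondrial UMIs. Of 3 members called between segments, 1 was called at that mitochondrial limit. The Amn call between rejecting and naive kidneys passed in 12 of 21 alternatives and was also lost with at least 4 gate UMIs (log2 0.57) and at 1500 UMIs (log2 0.58). Of 255 refitted group differences between classes, 21 lost and 5 gained a call. The segment difference between groups had 0 members called, and up to 1 (tolerized against naive) and 3 (tolerized against rejecting) with a kidney left out. Replicate numbers are shared across groups but same-numbered kidneys did not deviate together (r = -0.231, 0.177, and -0.0801 over 13682 genes), and the replicate block changed no member call. Because the replicate numbers may not mark the experiments, these values cannot show whether kidneys of the same experiment deviated together.

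Median detection over kidneys moved with the thinning, which also changed the gated set, and with a stricter gate. For Lrp2 it was 68.0% at 1500 UMIs and 88.4% with at least 4 gate UMIs, for Cubn 20.1% and 52.0%, for Amn 29.9% and 66.6%, and for Clcn5 9.97% and 36.1%, while Dab2 had 35.6% at 1500 UMIs. With 2 kidneys per group, 13.4% of simulated 2-fold changes were recovered between rejecting and naive kidneys. Many more genes were called in the deposited than were changed in the simulated data, so this share does not carry over.

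Over all genes, counts of calls moved with several settings. Between rejecting and naive kidneys 4106 genes were called, against 2733 at 1500 UMIs, 2667 with only S3-like barcodes, and 1497 to 2082 without 1 naive or rejecting kidney. Between tolerized and naive kidneys 2254 were called, against 3652 without other class markers and 744 to 892 without 1 naive kidney. Between tolerized and rejecting kidneys 0 were called, against 320 with DESeq2, 845 with no filter, 554 without tolerized replicate 1, and 1 to 5 under 4 other settings. Between segments 3755 were called, against 1465 at 1500 UMIs. Proximal tubule against thick ascending limb gave 5980 and against distal convoluted tubule 6171, which became 3938 and 3958 at the 20% mitochondrial limit. At 1500 UMIs thick ascending limb gave 3755, endothelium 5384 against 8154, and macrophages 6122 against 9374. The segment difference between groups ranged from 37 to 315 calls (81 in the reported fit) for rejecting against naive, 61 to 580 (207) for tolerized against naive, and 0 to 372 (1) for tolerized against rejecting kidneys.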
